A study of Mus musculus with 7 samples.

Results

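Mast cells, basophils and eosinophils are granulocytes of allergy and of defence against parasites, and each is known by the contents of its granules. Mast cell granules hold tryptases, chymases and a carboxypeptidase, basophil granules hold a related serine protease, and eosinophil granules hold a basic protein and a peroxidase. Mast cells and basophils also carry the high-affinity IgE receptor, whose alpha chain binds IgE, whose beta chain amplifies the signal and whose gamma chain passes it on to the kinase Syk. Fetal liver is a site of blood formation, where progenitors of these lineages can arise.

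The genes described here were chosen by name. They are the mast cell protease genes Cpa3, Tpsab1, Tpsb2 and Cma1, the IgE receptor genes Ms4a2 and Fcer1a, the basophil protease gene Mcpt8 and the eosinophil granule genes Prg2 and Epx. All 9 had at least 1 probe set annotated to that symbol alone, with 10 probe sets in all, out of 12393 genes with such a probe set.

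The samples were total RNA from cells of the mouse fetal liver, hybridised to 7 single-colour arrays: a feeder layer of cells from that organ (1 array), liver endothelial progenitors that were not sorted (unsorted, 1 array), and progenitors positive (Sca1+, 2 arrays) or negative (Sca1-, 3 arrays) for the surface antigen Sca1. The labels give no strain, age or genotype and are silent on whether replicate arrays stand for different animals or cultures, so the p-values reflect only variation among these arrays, part of which may be technical. A first set of 4 arrays holds 1 of each group, and a second set of 3, whose labels alone name a processing program, holds Sca1+ replicate 2 and Sca1- replicates 2 and 3. Precision is limited by how few arrays there are, and the feeder array was deposited in a table of its own under another platform. Signals are given after scaling each array to the same trimmed mean of 500.

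Bacterial control probe sets served as a background measure. The highest of 27 read 60.8 on the feeder array, 170 on the unsorted array, 55.2 and 82.0 for Sca1+ samples, and 170, 88.2 and 50.8 for Sca1- samples. Whether transcripts of this kind had been spiked into the RNA is not stated in the labels; if so, these limits would be too high. The Actb 3'/5' signal ratio, a measure of transcript truncation, lay between 1.01 and 2.37 on 5 arrays, reaching 6.83 for Sca1+ replicate 1 and 13.5 for Sca1- replicate 1. Ptprc, the leukocyte antigen CD45, read at least 3302 on each of the 7 arrays, Pecam1, the endothelial antigen CD31, at most 206, and the collagen gene Col1a1 between 32.6 and 20565. In bulk RNA, fewer cells of a type and less RNA per cell cannot be told apart.

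The granule and receptor genes read near or below background on most arrays. Of 63 values (9 genes on 7 arrays), 9 lay above the array's highest background control, or 14.3%, against 67.9% of the values of all genes. A signal of 100 was exceeded by 11 of the 63 values (17.5%), against 65.9% for all genes. None of the 9 genes exceeded 100 on all 5 sorted arrays, which 6226 of the 12393 genes did. For 4 genes (Tpsb2 by its brighter probe set, Ms4a2, Fcer1a and Epx) the value was below the highest background control on all 7 arrays. The summed signal of the 9 genes was 291 on the feeder array, 770 on the unsorted array, 477 and 396 in Sca1+ cells, and 909, 136 and 256 in Sca1- cells. The unsorted array and Sca1- replicate 1, where the sums were highest, were also the arrays with a highest background control of 170, against at most 88.2 elsewhere. The part of background in these sums was not tested.

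**Figure D1:**
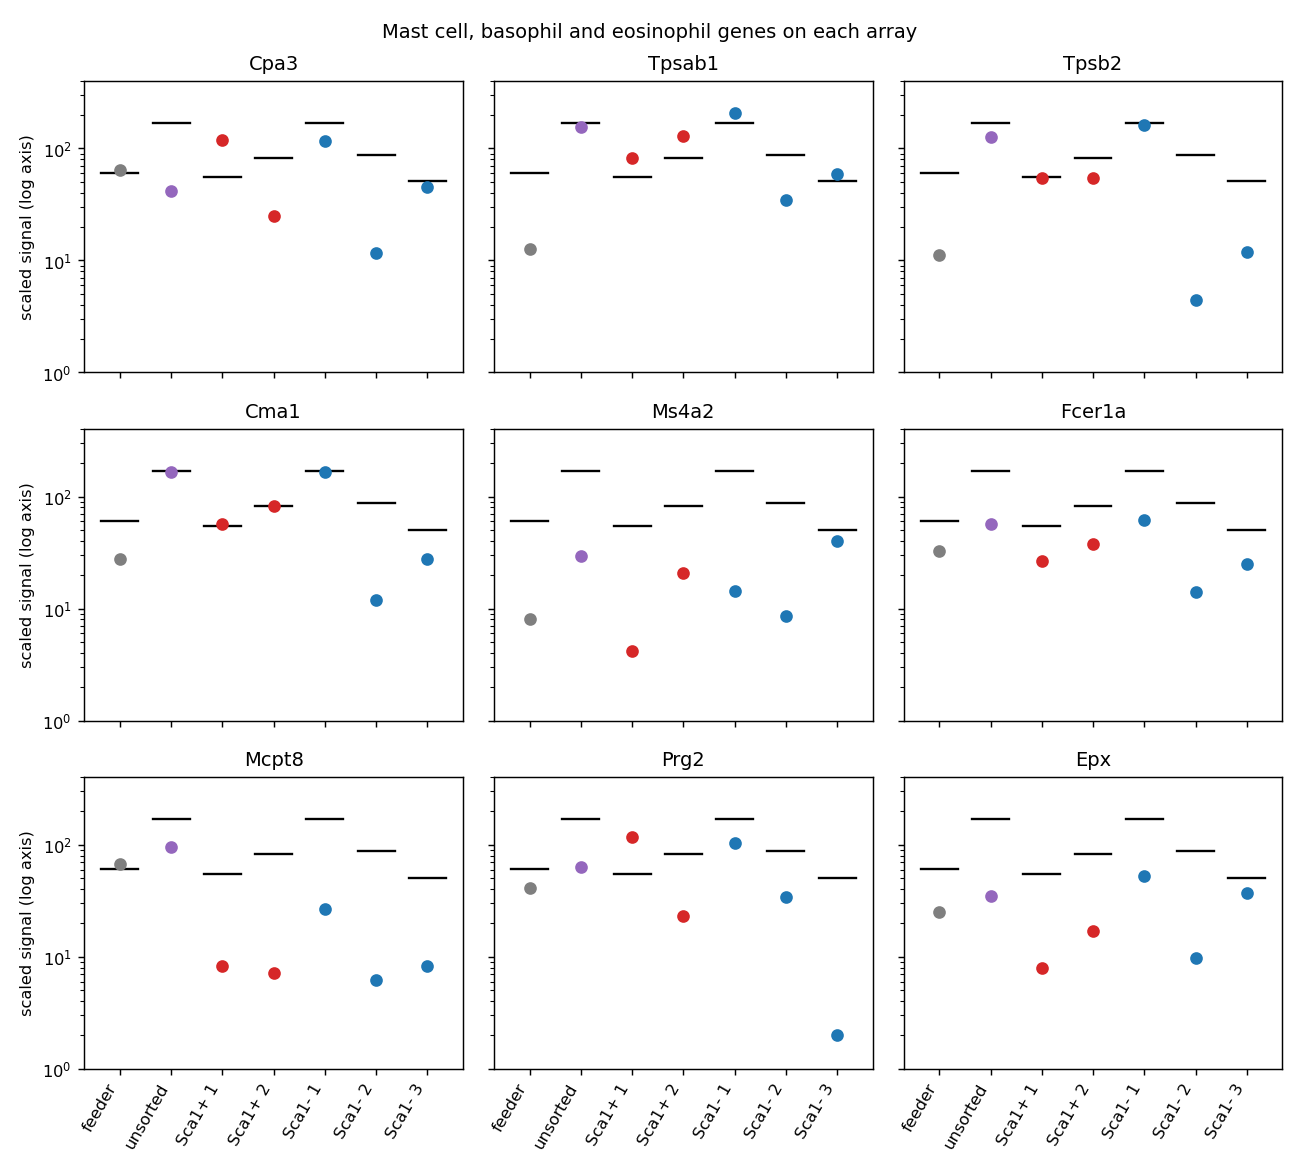
Scaled signal (log axis) of each of the 9 genes on the 7 arrays, 1 point per array, with the feeder array in grey, unsorted in purple, Sca1+ in red and Sca1- in blue. The black bar is that array's highest background control. Only 9 of the 63 points lie above their bar, and the highest point is Tpsab1 on Sca1- replicate 1, at 208.

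Among the mast cell proteases, Tpsab1, which encodes a tryptase, had the most values above background. Its signal was 12.6 on the feeder array, 155 on the unsorted array, 82.6 and 130 in Sca1+ cells, and 208, 35.0 and 58.8 in Sca1- cells. It exceeded the highest background control on 4 arrays, which were both Sca1+ arrays and Sca1- replicates 1 and 3, and the 2 Sca1+ values lay inside the range of the 3 Sca1- values. Tpsb2, which encodes a second tryptase, read 11.2 on the feeder array, 127 on the unsorted array, 54.0 and 54.6 in Sca1+ cells, and 162, 4.40 and 12 in Sca1- cells. Its other probe set gave 254 on Sca1- replicate 1, above the background limit of 170 there, and between 7.60 and 54.0 on the other 6 arrays. Both probe sets were thus highest on that array, while they placed it on different sides of the background limit. The tryptases are close relatives, and cross-hybridisation between them was not tested.

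Cma1, the gene of a mast cell chymase, had a signal of 28.0 on the feeder array, 167 on the unsorted array, 56.6 and 81.8 in Sca1+ cells, and 165, 12 and 27.8 in Sca1- cells. It passed the background limit on Sca1+ replicate 1 alone, by 56.6 against 55.2. Cpa3, the mast cell carboxypeptidase gene, read 64.4 on the feeder array, 41.8 on the unsorted array, 119 and 24.8 in Sca1+ cells, and 116, 11.6 and 45.2 in Sca1- cells. It was above background on Sca1+ replicate 1 and on the feeder array, and its highest values in the 2 fractions were close to each other. Both of these came from the first set.

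The IgE receptor chains specific to mast cells and basophils were not above background on any array. Fcer1a, which encodes the IgE-binding alpha chain, read 32.4 on the feeder array, 56.4 on the unsorted array, 26.6 and 37.6 in Sca1+ cells, and 61.8, 14.2 and 24.8 in Sca1- cells. Ms4a2, the gene of the beta chain, read 8.0 on the feeder array, 29.4 on the unsorted array, 4.20 and 20.6 in Sca1+ cells, and 14.4, 8.60 and 39.8 in Sca1- cells. With every value under the floor of 64 used for log2 differences, the levels of these chains have no order between groups.

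Mcpt8, the basophil granule protease gene, had its highest value in the unsorted progenitors. It read 67.8 on the feeder array, 95 on the unsorted array, 8.20 and 7.20 in Sca1+ cells, and 26.6, 6.20 and 8.20 in Sca1- cells. The unsorted value lay below that array's background limit of 170 and the feeder value above its limit of 60.8, while all 5 sorted values were under the floor.

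Of the eosinophil granule genes, Prg2, which encodes major basic protein, read 41.4 on the feeder array, 63.2 on the unsorted array, 118 and 23.2 in Sca1+ cells, and 103, 34.2 and 2.00 in Sca1- cells. It was above background on Sca1+ replicate 1 alone, and as for Cpa3 the first-set array was the highest in each fraction. On those 2 arrays the Actb 3'/5' ratio was 6.83 and 13.5, against at most 2.37 elsewhere. The part of transcript truncation in the Cpa3 and Prg2 values was not tested. Epx, the eosinophil peroxidase gene, read 25.0 on the feeder array, 35.2 on the unsorted array, 8.0 and 17.0 in Sca1+ cells, and 52.8, 9.80 and 37.4 in Sca1- cells. All of its values lay below both the floor and the background limit.

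Whether any of these genes differed between Sca1+ and Sca1- progenitors was examined next. Signals above 100 on at least 2 sorted arrays were required for a test, and 3 of the 9 genes met this: Cpa3, Tpsab1 and Prg2. The first genes outside this limit were Tpsb2 and Cma1, with 1 sorted array above 100 each, and the other 4 had none. In a limma fit across 8591 genes with Benjamini-Hochberg adjustment, 0 of the 3 were called, where the background was 0% of all genes in either direction. Unadjusted p-values under 0.05 were met by 0 of the 3, and by 95 genes higher and 197 lower in Sca1+ among the 8591.

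The log2 difference of Cpa3 (Sca1+ minus Sca1-) was 0.16 ± 0.53 (SE), with a 95% interval from -1.08 to 1.405 and a limma adjusted p of 0.9995. For Prg2 it was 0.21 ± 0.51, with an interval from -0.98 to 1.41, and for Tpsab1 0.13 ± 0.65, with an interval from -1.41 to 1.66, both at the same adjusted p. These intervals hold changes of more than 2-fold in both directions for Tpsab1 and Cpa3, and upwards for Prg2. Values at the floor narrow them, since on each array a signal under 64 was set to 64.

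Within the first set Tpsab1 was lower in Sca1+ (log2 difference -1.33, 1 array of each fraction), and within the second set it was higher (1.02, 1 Sca1+ and 2 Sca1- arrays). Its pooled difference took the opposite sign, -0.16, when Sca1- replicate 2 or Sca1- replicate 3 was left out, and -0.20 without Sca1+ replicate 2. For Cpa3 the first set gave 0.04 and the second, with all 3 arrays at the floor, 0. For Prg2 they gave 0.20 and 0. Without Sca1+ replicate 1 the differences of Cpa3 and Prg2 were -0.28 and -0.23. Blocking on the deposit set left 0 of the 3 called, beside 0.989% of all genes called lower and 0% called higher in Sca1+.

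**Figure D2:**
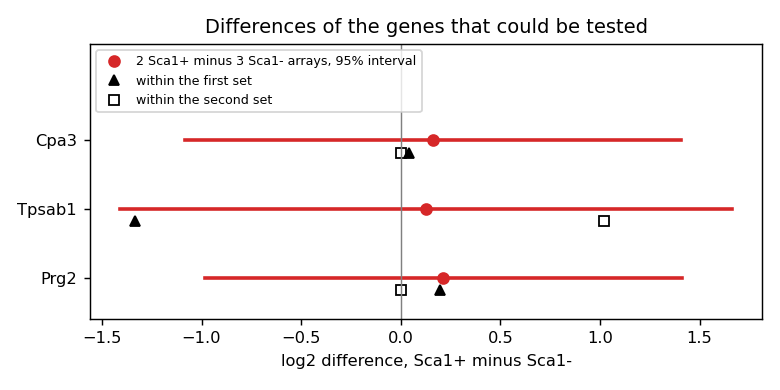
Log2 difference between Sca1+ and Sca1- for the 3 genes with enough signal for the test. Red points and lines are the difference of 2 Sca1+ and 3 Sca1- arrays with its 95% interval, black triangles the first set and open squares the second set; the intervals include 0 and the sets disagree in sign for Tpsab1.

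Over the 9 genes the median log2 difference between Sca1+ and Sca1- was 0, as over all 12393 genes, and 0 of the 9 had groups that did not overlap. For Ms4a2, Fcer1a, Mcpt8 and Epx all sorted values were at the floor, which fixed their differences at 0 and their groups as overlapping. The median of 0 came from these genes. It was 0.31 with a floor of 16 and 0.22 with 32 added in place of a floor, against 0.04 over all genes in both. Of all genes, 9.18% lay higher in Sca1+ without overlap and 6.17% lower; of the tested genes, 12.1% and 8.45% did. Tpsb2 (-0.45) and Cma1 (-0.28) had a difference below 0 on the floored scale, which in both cases came from Sca1- replicate 1. Their sign depended on the treatment of low signals, with 0.65 for Tpsb2 and 0.70 for Cma1 at a floor of 16, and 0.35 and 0.32 when 32 was added to all signals and no floor was set. Without that array the differences were 0 for Tpsb2 and 0.18 for Cma1, and Cpa3, Tpsab1 and Prg2 no longer had enough signal for the test.

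Against the sorted fractions, the unsorted array had no replicate, and values are described without a test. Of the 9 genes, 1 (Cma1, 1.07 above the mean of the 2 fractions on the log2 scale) was at least 2-fold higher on the unsorted array and 0 were at least 2-fold lower, where 18.3% of all genes were higher and 5.79% lower by that much. For none of the 9 did the mean of the fractions lie 2-fold above the floor. The 0 downwards was thus fixed by the floor and says nothing of these genes. The Cma1 value of 167 was itself below the array's background limit of 170. The next differences were those of Tpsb2 (0.76), Tpsab1 (0.65) and Mcpt8 (0.57), and the median over the 9 genes was 0, against 0.13 over all genes. This median of 0 was also set by the floor, being 0.81 with a floor of 16.

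A 2-fold difference between the feeder array and the mean of the fractions was reached by 0 of the 9 genes upwards and by 0 downwards, beside 9.72% and 5.7% of all genes. The 0 downwards was again fixed by the floor and says nothing of these genes. The median log2 difference was -0.22, against 0 over all genes; leaving out Sca1- replicate 1 gave 0, leaving out Sca1+ replicate 1 gave -0.12, and leaving out Sca1- replicate 2 or 3 gave -0.34. Tpsab1 had the lowest feeder value relative to the fractions, -0.63, with a signal of 12.6 on the feeder array, and Mcpt8 was the one gene above 0, by at least 0.08. This is a lower bound, as are the unsorted differences of Mcpt8, Cma1, Tpsb2 and Tpsab1, whose unsorted signals were above the floor. For Cpa3, Ms4a2, Fcer1a, Prg2 and Epx the unsorted signal was itself under the floor, so their unsorted differences are bounds in neither direction. The counts of 2-fold differences hold for the floored scale only. This comparison also crosses the 2 deposited tables.

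Some transcripts that mast cells and basophils share with other leukocytes, Fcer1g and Syk among them, were abundant on the same arrays. Fcer1g encodes the gamma chain, which also serves the IgG receptors of macrophages and neutrophils. Its signal was 7716 on the feeder array, 7248 on the unsorted array, 10261 and 9822 in Sca1+ cells, and 11387, 9854 and 8858 in Sca1- cells. The kinase gene Syk read 2290 on the feeder array, 2995 on the unsorted array, 4463 and 3262 in Sca1+ cells, and 9758, 3631 and 3763 in Sca1- cells. Both genes were above background on all 7 arrays, while the alpha and beta chains were above it on none.

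**Figure D3:**
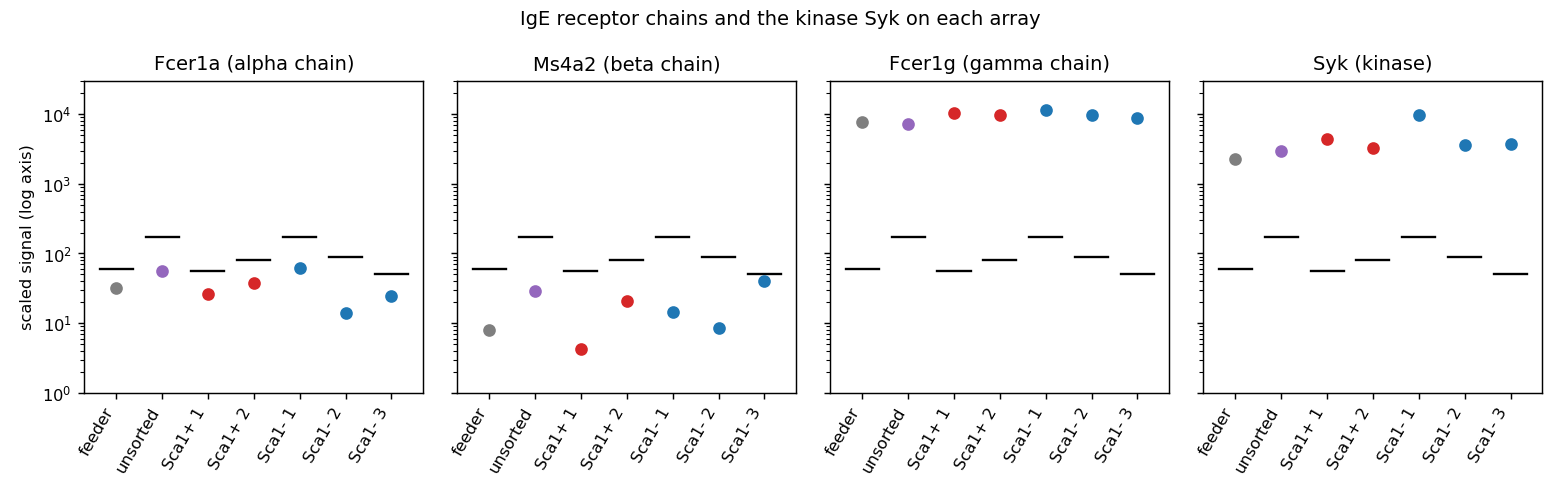
Scaled signal (log axis) of the genes of the 3 IgE receptor chains and of the kinase Syk on the 7 arrays, with each array's highest background control as a black bar. Fcer1a and Ms4a2 lie below the bar on all arrays, and Fcer1g and Syk lie above it on all, with Fcer1g between 7248 and 11387.

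Of 18 further genes listed for IgE receptor signalling, 16 had a probe set of their own, 12 exceeded 100 on all 5 sorted arrays and 13 were tested. Plcg1, which encodes another phospholipase and was named after its values were seen, was above background on 0 of the 7 arrays. None of the 13 was called higher or lower, in the group fit or in the fit blocked by deposit set. In the group fit 0 had an unadjusted p under 0.05. The phospholipase gene Plcg2 (log2 difference -0.62 ± 0.60), the adaptor gene Lat2 (0.79 ± 0.80) and the phosphatase gene Ptpn6 (-0.58 ± 0.60) had the smallest p there. In the blocked limma fit their unadjusted p-values were 0.0088, 0.0281 and 0.0143, and their adjusted p-values 0.207, 0.283 and 0.239. Macrophage markers were abundant on the same arrays, with 10 of 13 above 100 on all 5 sorted arrays and a summed signal of 64847 on the feeder array, 69492 on the unsorted array, 131807 and 98218 in Sca1+ cells, and 131587, 92415 and 83128 in Sca1- cells. Their part in the receptor signalling values was not tested.

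Of 24 other mast cell genes listed, 15 were measured, 4 exceeded 100 on all sorted arrays, and 10 were tested. In the group fit 0 were called by limma and 1 (Ctsg) was lower at an unadjusted p under 0.05. Once the deposit set was blocked, 1 (Hdc) was called lower in Sca1+, beside 0.989% of all tested genes. The highest signals were those of Srgn, which encodes the granule proteoglycan serglycin, with 2234 on the feeder array, 3085 on the unsorted array, 6068 and 2320 in Sca1+ cells, and 10415, 5391 and 5264 in Sca1- cells. Mitf, a transcription factor gene of mast cells that also acts in macrophages, read between 1026 and 1610 on all 7 arrays, with a log2 difference of 0.31 ± 0.37. Kit, Tpsg1, Hpgds and Gata2 were not named by the rule and were chosen after their values were seen. Kit, the stem cell factor receptor of mast cells and early progenitors, read 92.2 on the feeder array, 178 on the unsorted array, 50.6 and 103 in Sca1+ cells, and 188, 75.6 and 221 in Sca1- cells. Its groups overlapped, with a log2 difference of -0.85 ± 0.60. Tpsg1, which encodes a membrane-anchored tryptase, read 63.98 on the feeder array, 181 on the unsorted array, 107 and 67.6 in Sca1+ cells, and 116, 109 and 101 in Sca1- cells, above background on 5 arrays. Hpgds, a prostaglandin D synthase gene of mast cells and some macrophages, read 407 on the feeder array, 719 on the unsorted array, 248 and 328 in Sca1+ cells, and 153, 246 and 189 in Sca1- cells, above background on 6 arrays. The transcription factor gene Gata2, which also acts in stem cells and endothelium, read 310 on the feeder array, 416 on the unsorted array, 87.0 and 233 in Sca1+ cells, and 61.4, 235 and 193 in Sca1- cells, and was above background on 6 arrays too. Hpgds lay higher in Sca1+ without overlap, as 12.1% of tested genes did, with a log2 difference of 0.57 ± 0.43, and like Tpsg1 and Gata2 it was not called.

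Hdc, which encodes the histamine-forming enzyme of mast cells, basophils and some myeloid cells, was the gene called with the block. Its signal was 2.60 on the feeder array, 35.2 on the unsorted array, 555 and 4.0 in Sca1+ cells, and 4495, 533 and 585 in Sca1- cells. The groups overlapped, since Sca1+ replicate 1 lay above Sca1- replicate 2. The difference was -2.57 ± 1.2 in the group fit (limma adjusted p = 0.9995) and -3.08 ± 0.27 in the fit blocked by deposit set (limma adjusted p = 0.00785). Split by set, it was -3.02 in the first and -3.13 in the second, where the Sca1+ value was at the floor. The size of the second-set difference is thus a lower bound, and its closeness to the first-set one holds for the floored scale only. The blocked fit had 2 residual degrees of freedom. How far its SE and its call of Hdc depend on the floor was not tested. Ctsg, the cathepsin G gene of neutrophils and some mast cells, read 7.40 on the feeder array, 69.8 on the unsorted array, 939 and 22.2 in Sca1+ cells, and 2459, 1252 and 1226 in Sca1- cells. Both Sca1+ arrays lay below all 3 Sca1- arrays, and its difference of -2.67 ± 1.1 did not pass in the group fit (adjusted p = 0.9995) or in the blocked one (-3.04 ± 0.62, adjusted p = 0.126).

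The summed signal of 14 neutrophil markers, like Hdc and Ctsg, was highest on Sca1- replicate 1 and lowest on the feeder array and Sca1+ replicate 2, although single markers such as Elane and Pglyrp1 were highest on Sca1- replicate 2. The sum was 9032 on the feeder array, 69353 on the unsorted array, 146962 and 10993 in Sca1+ cells, and 631487, 236773 and 211083 in Sca1- cells. Of these 14 markers, 9 exceeded 100 on the feeder array, 13 on the unsorted array, 12 and 11 in Sca1+ cells, and all 14 in each Sca1- sample. In the group fit 0 of the 14 were called. In the fit blocked by deposit set 8 were called lower in Sca1+, beside 0.989% of all tested genes. Without overlap 11 lay lower in Sca1+, beside 8.45% of tested genes. The part of neutrophil RNA in the Hdc and Ctsg values was not tested. Cpa3, by contrast with their range over the sorted arrays, did not exceed 119 on any of them.

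**Figure D4:**
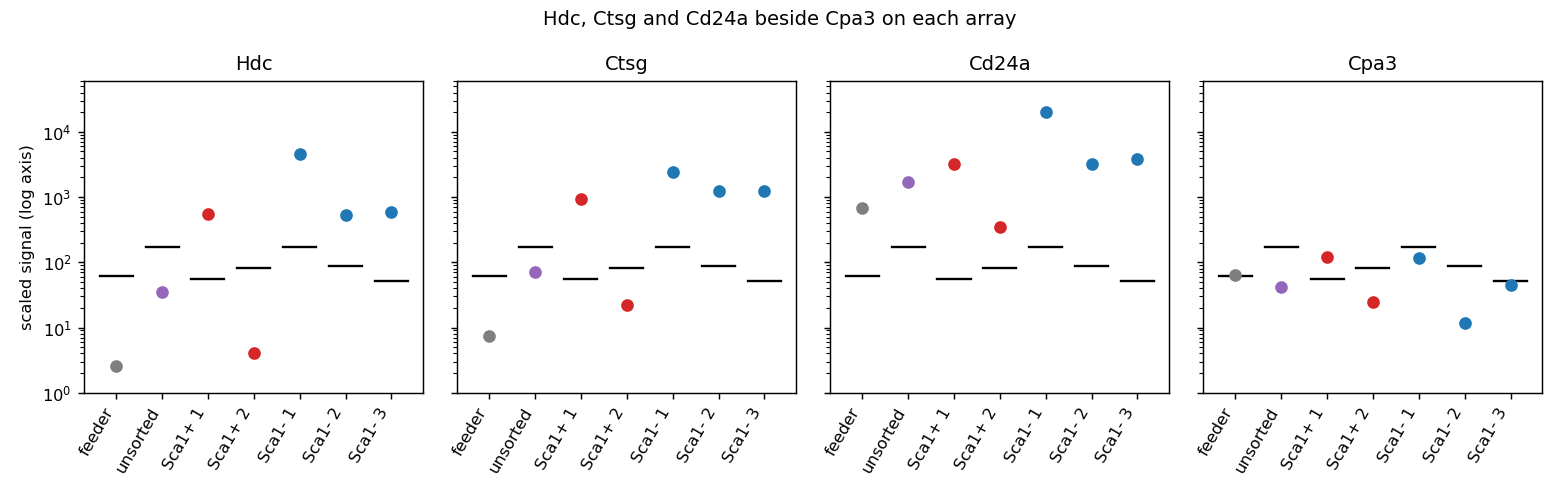
Scaled signal (log axis) of Hdc, Ctsg, Cd24a and Cpa3 on the 7 arrays, with each array's highest background control as a black bar. Hdc, Ctsg and Cd24a are highest on Sca1- replicate 1 (4495, 2459 and 20460), where Cpa3 reads 116.

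Of 14 genes listed for basophils, 12 were measured, 3 exceeded 100 on all sorted arrays and 8 were tested. In the group fit 0 were called by limma and 0 had an unadjusted p under 0.05. Hdc, which is in this list too, was the one called with the block, beside 0.989% of all tested genes called lower. The receptor chain genes Csf2rb (between 859 and 1725) and Csf2rb2 (between 728 and 2092), which serve interleukin and colony-stimulating factor receptors on many myeloid cells, were above background on all 7 arrays. Cebpa, a myeloid transcription factor gene, read 2938 on the feeder array, 3091 on the unsorted array, 133 and 3451 in Sca1+ cells, and 261, 3002 and 2907 in Sca1- cells, so that both low values were those of the first-set sorted arrays. Runx1, a blood-forming transcription factor gene, had a log2 difference of -0.87 ± 0.45 and lay lower on both Sca1+ arrays than on all Sca1- arrays, as 8.45% of tested genes did.

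For eosinophils, 7 of 15 listed genes were measured, 1 exceeded 100 on all sorted arrays and 2 were tested. In the group fit 0 were called by limma and 0 had an unadjusted p under 0.05. With the block 1 (Cd24a) was called lower, beside 0.989% of all tested genes. Siglecf, a surface lectin gene of eosinophils, reached 151 on Sca1- replicate 1 and at most 53.4 elsewhere, and was above background on none of the arrays. Gata1, a transcription factor gene of eosinophils, mast cells and red cells, read 42.6 on the feeder array, 129 on the unsorted array, 80.6 and 34.0 in Sca1+ cells, and 30.4, 131 and 117 in Sca1- cells, with a difference of -0.47 ± 0.50. Cd24a, a surface antigen gene of eosinophils but also of neutrophils, red cell precursors and B cells, read 667 on the feeder array, 1724 on the unsorted array, 3256 and 346 in Sca1+ cells, and 20460, 3176 and 3867 in Sca1- cells. It differed by -2.57 ± 1.1 in the group fit (limma adjusted p = 0.9995) and passed in the blocked fit (-3.04 ± 0.26, limma adjusted p = 0.00646).

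Of 16 listed type 2 cytokines, growth factors and their receptors, 15 were measured, 4 exceeded 100 on all sorted arrays and 6 were tested, with 0 called by limma with or without the block and 0 at an unadjusted p under 0.05 in the group fit. The receptor gene Il4ra read 574 on the feeder array, 960 on the unsorted array, 650 and 649 in Sca1+ cells, and 490, 554 and 521 in Sca1- cells, a log2 difference of 0.32 ± 0.36 with no overlap, as 12.1% of tested genes had in this direction. Csf2ra, the alpha chain gene of the GM-CSF receptor, differed by -1.21 ± 0.54, with 564 and 1671 in Sca1+ cells, and 1702, 2600 and 2541 in Sca1- cells. It lay lower in Sca1+ without overlap, as 8.45% of tested genes did. The nearest values, 1671 and 1702, came from different deposit sets. The receptor gene Crlf2 had the highest mean log2 signal of this list over the sorted arrays. It read 980 on the feeder array, 1175 on the unsorted array, 1470 and 1571 in Sca1+ cells, and 1831, 1822 and 1541 in Sca1- cells. Its groups overlapped, with a log2 difference of -0.18 ± 0.35. Kitl, which encodes the ligand of Kit, read 497 on the feeder array, 590 on the unsorted array, 88.2 and 279 in Sca1+ cells, and 17.8, 121 and 140 in Sca1- cells. The feeder and unsorted values of Kitl were above all 5 sorted values.

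The genes whose pattern was most like that of Cpa3 over the 6 arrays of the larger table, by root mean square difference of centred log2 signals, were Ddit4l (0.0525), H1f4 (0.0532) and Prg2 (0.0596). For Prg2 they were Cpa3 (0.0596), Camk1d (0.0642) and Cacul1 (0.0662), and for Tpsab1 Gm10229 (0.135), Svs5 (0.149) and Srpk3 (0.163). Cpa3, Ddit4l, H1f4 and Prg2 were at the floor on the same 4 arrays and slightly above 100 on the same 2. Camk1d and Cacul1 were far above the floor on all 6 arrays, between 329 and 653 and between 1586 and 3122. Both had their highest values on Sca1+ replicate 1 and Sca1- replicate 1. Gm10229, Svs5 and Srpk3 had at most 186, 196 and 153 on any of the 6 arrays.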

How the data were processed

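Each probe set has 1 deposited intensity per array, not in log form, and all 7 arrays share a 2% trimmed mean of 250.1. The program GCOS is named for the second set per the submitters' processing notes; the labels used here name none for the other arrays. Titles gave the groups, and where they lack a number, replicate 1 was assumed. No array duplicated another.

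Signals were rescaled so that this mean was 500, raised to 64 where they were lower, and converted to log2. Probe sets were named from the platform annotation of the 2 tables; 20380 of 22690 had 1 gene, and per gene the brightest on average over the larger table's 6 arrays was kept. Differences between Sca1+ and Sca1- were fitted by limma 3.58.1 under R 4.3.3 (lmFit, eBayes with intensity trend, 1 mean per group, 6 arrays, 3 residual degrees of freedom), on genes above 100 on at least 2 sorted arrays, at an adjusted p of 0.05. The feeder and unsorted comparisons were not tested. The test was checked on simulated data. Figures were drawn with matplotlib 3.10.9.

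All 9 genes are named; from each further list the 3 of highest signal over the sorted arrays and the 3 of smallest p are named, and per tested gene the 3 most alike. Genes and lists were chosen with earlier results of these data known.

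The alternatives were other scalings, floors, filters and probe set rules, no intensity trend, blocks for deposit set or replicate number, only the compared groups, and leaving out each sorted array.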

Additional observations from a re-analysis of the deposited data

How the results depend on the processing

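The count of the 9 genes called between Sca1+ and Sca1- was 0 under all 17 alternatives; none of them had enough signal for the test with a minimum of 300 or without Sca1- replicate 1, so those 2 settings say nothing of these genes. Without the filter all 9 were tested, and the smallest unadjusted p was 0.431. The count of all genes called was 0 in the group fit, 1 without the filter (Smad9), 85 when blocked by deposit set and 80 with the replicate block. Of the further listed genes 0 were called in the group fit, 2 when blocked by deposit set (Hdc and Cd24a) and 3 with the replicate block (also Ctsg). Replicate number 2 is the only number that titles of both fractions give, so the numbers do not establish pairs. Deviations of equally numbered arrays correlated at 0.57 for number 1 and 0.48 for number 2 across 8591 genes. The deviations of the 2 Sca1+ arrays are opposite by construction, and equally numbered arrays lie in the same deposit set. These correlations therefore cannot show pairing. The difference of Tpsab1 changed sign to -0.22 with the higher floor and to -0.16 in the fit with the replicate block, and ranged from -0.20 to 0.69 when 1 array was left out, being -0.16 without Sca1- replicate 2 or 3. The median of the 9 genes, unsorted minus sorted, moved to 0.81 with a floor of 16 and 0.48 with a pseudocount of 32. These settings keep more of the order of signals below 64, which the floor of 64 removes. The cause of the other changes was not tested. Under the other alternatives the medians moved from the values reported by less than 0.33. This limit is the pooled SD, over the sorted arrays, of the median log2 signal of the 9 genes. That median was at the floor on all sorted arrays but Sca1- replicate 1, so the SD rests on that array and is a poor measure of replicate spread. The feeder median ranged from -0.39 with quantile normalization to 0 with the higher floor or without Sca1- replicate 1.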

Other observations

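Other listed genes of these lineages, chosen here after their values were seen, differed in whether they passed background. The mast cell protease genes Mcpt1 and Mcpt4 and the eosinophil genes Prg3, Il5ra and Alox15 were above the highest background control on none of the 7 arrays. Ccr3, also in the eosinophil list, was above it on 1 array, Sca1- replicate 3, by 60.4 against 50.8. Ltc4s, a leukotriene synthase gene of mast cells and other myeloid cells, was above it on 3 arrays and Mcpt2, another mast cell protease gene, on 2. In the mast cell list Gzmb was above it on 3 arrays and Tph1 on 2. Mcpt2 read 18 on the feeder array, 87.8 on the unsorted array, 68.4 and 32.2 in Sca1+ cells, and 182, 34.4 and 34.8 in Sca1- cells, with its highest value on the array where Tpsb2 and Tpsab1 were highest too. The background limit there was 170, and Siglecf, below that limit at 151, also had its highest value on that array. Il13, a type 2 cytokine gene, had 177 on Sca1- replicate 1, above that array's background limit of 170, and at most 62.4 on the others. Il6, a cytokine gene of many stromal and myeloid cells, read 275 on the feeder array, 73.4 on the unsorted array, 3.00 and 57.0 in Sca1+ cells, and 7.60, 4.0 and 31.8 in Sca1- cells, and the feeder array was the one above background.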
